A study of Arabidopsis thaliana with 4 samples.

Results

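Wild type seedlings of Arabidopsis thaliana ecotype C24 were profiled by RNA sequencing, and the levels in that single library are described here for every locus at 1 FPKM or more (mapped fragments scaled to transcript length and library size, a level per length). The rule kept 19165 of the 34133 loci in the deposited table, or 56.1%. The study also sequenced seedlings of 3 C24 mutants, prp31, zop1 and sta1, which are not compared here. The C24 plants were wild type, carried no transgene or treatment named in the labels, and were 10 days old after growth on Murashige and Skoog agar at 23 °C with 16 h of light and 8 h of dark. RNA was taken from seedling material, and polyadenylated RNA was enriched with oligo(dT) beads. The group holds 1 library, so no level has a replicate, an SD or a test, and the intervals below are exact Poisson intervals that cover counting error only. In whole seedlings, fewer cells of a type and less RNA per cell cannot be told apart.

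Many nuclear genes of a green seedling encode proteins of the chloroplast. Light-harvesting proteins bind chlorophyll and pass energy to photosystems II and I, electron carriers move electrons between them, and the Calvin cycle fixes carbon dioxide through Rubisco. Many of these proteins are encoded by small nuclear gene families, in which near-identical copies can differ widely in transcript level. Housekeeping families such as actins, tubulins and aquaporins likewise combine broadly used members with members known from pollen or seed.

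Of the loci below 1 FPKM, 5129 had a value above 0 and 9839 were listed at 0. The median of the loci at 1 FPKM or more was 11.4 FPKM, with quartiles of 4.68 and 27.2 FPKM, and they held 99.8% of the summed FPKM. Protein-coding genes made up 18609 of them, or 97.1%. These were 69.7% of the 26695 protein-coding loci in the table. The 5 loci just inside the threshold lay between 1.00079 and 1.00205 FPKM and included MEF1, VAL3 and RL6. The 5 just outside lay between 0.998515 and 0.999503 FPKM and included SAUR36. The spacing of low values at loci with a single annotated transcript implied about 49100000 fragments, a setting at which 47.4% of 1096 loci fell on whole reads, against a median of 2.83% over the settings tried. At that depth the 9694 loci at 1 FPKM or more with a single transcript of at least 500 nt had a median of 774.5 implied reads and a minimum of 16.

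Transcript abundance was concentrated in few loci. The highest locus held 2.86% of the summed FPKM, the 10 highest held 9.90%, the 100 highest held 31.9% and the 1000 highest held 60.3%. Together 475 loci held 50% of the sum and 7112 held 90%. The 99 loci at 1000 FPKM or more accounted for 31.8%, about as much as the 1189 loci from 100 to under 1000 FPKM at 32.2% and the 9116 loci from 10 to under 100 FPKM at 31.1%. The 8761 loci from 1 to under 10 FPKM held 4.73%.

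**Figure D1:**
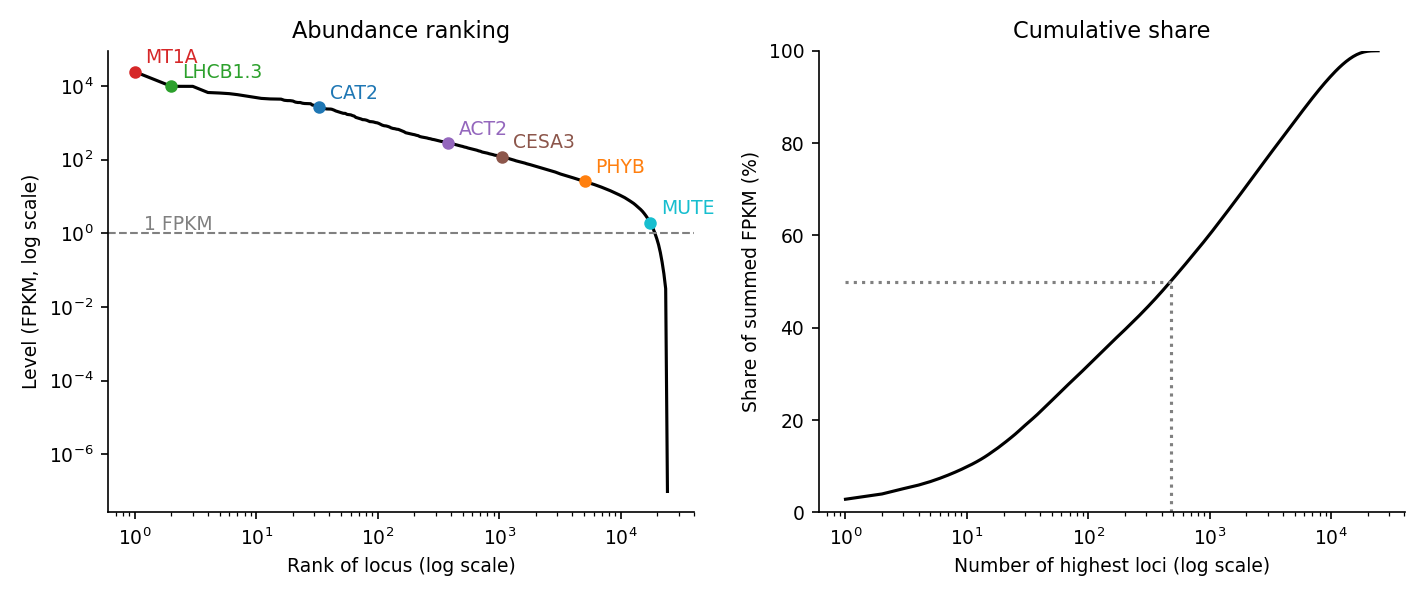
Left, level of each locus in FPKM against its rank, both on log scales, with 7 named genes marked and the 1 FPKM threshold dashed. Right, cumulative share of summed FPKM in percent against the number of highest loci on a log scale; the dotted lines meet where 475 loci hold 50%.

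The ranking was led by short or overlapping transcript models and by photosynthesis genes. MT1A, a metallothionein that binds metal ions through clustered cysteines, was highest at 24611 FPKM, and LHCB1.3, a light-harvesting protein of photosystem II, was next at 9871 FPKM [9844 to 9899]. The uncharacterized locus AT2G01021 followed at 9859 FPKM, and RCA, the activase that removes inhibitory sugars from Rubisco, was next at 6710 FPKM. Of the 30 highest loci, 23 belonged to the photosynthesis lists of 68 genes. The other 7 were MT1A, AT2G01021, BCA1, PSBTN, the ribosomal protein L41 gene AT3G08520 at 4451 FPKM, the polyketide cyclase family gene AT4G23670 at 3350 FPKM and the uncharacterized AT5G42530 at 3324 FPKM. PSBTN, annotated as a photosystem II subunit, stood at 4474 FPKM and was not in the lists. MT1A, AT2G01021 and AT3G08520, whose model is 246 nt long, were the 3 of the 30 highest with a transcript under 300 nt. Among protein-coding loci with a transcript of at least 500 nt, 24 of the 30 highest were in the lists.

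The transcript models of MT1A and AT2G01021 are shown because their lengths bear on their FPKM. Both are in RefSeq's TAIR10.1 annotation of the Columbia reference, at chr1:2338904-2339321 on the minus strand (MT1A, spliced) and chr2:6571-6672 on the plus strand (AT2G01021); capitals mark the start and stop codons.
MT1A: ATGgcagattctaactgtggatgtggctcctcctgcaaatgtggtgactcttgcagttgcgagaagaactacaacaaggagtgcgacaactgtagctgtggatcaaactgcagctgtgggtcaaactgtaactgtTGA
AT2G01021: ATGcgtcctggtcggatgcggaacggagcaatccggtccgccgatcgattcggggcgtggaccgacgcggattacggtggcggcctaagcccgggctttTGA
The MT1A model is 138 nt long and holds the coding sequence alone, and the AT2G01021 model is 102 nt long. Both are shorter than the 204 nt that the spacing of low values took off transcript length. All 50-base words of MT1A also lie in AT1G07590, a tetratricopeptide repeat gene that overlaps it on the same strand and stood at 575 FPKM. AT2G01021 lies beyond the 18S ribosomal RNA locus at chr2:3706-5513 and has an exact copy at chr3:14200542-14200643, beyond another 18S locus. The part of model length, overlap and ribosomal sequence in these 2 levels was not tested.

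Light-harvesting and reaction-centre genes filled the top of the ranking. The 20 light-harvesting genes were all at 1 FPKM or more, 17 of them at 1000 FPKM or more, with a median of 2314 FPKM, and held 6.89% of the summed FPKM. After LHCB1.3 came LHCB1.5 at 6494 FPKM [6469 to 6519] and LHCA1, an antenna protein of photosystem I, at 5170 FPKM. The lowest were LHCA6 at 123 FPKM [120 to 126], LHCA5 at 92.4 FPKM and LHCB4.3 at 33.5 FPKM, and LHCB4.1 was 59.6 times LHCB4.3. Within LHCB1, LHCB1.3 was 9.14 times LHCB1.4, which stood at 1080 FPKM. The LHCB1 copies share sequence: 17.0% of the 50-base words of LHCB1.3 occur in other loci, so fragments could have been divided among them.

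The 22 nuclear photosystem subunits had a median of 2452 FPKM, with 21 at 1000 FPKM or more. PSBR of photosystem II was highest at 5486 FPKM [5459 to 5513] and PSAG of photosystem I followed at 4913 FPKM [4887 to 4939]. Duplicated subunits were unequal. PSAE1 at 4035 FPKM was 6.92 times PSAE2 at 583 FPKM, PSBO1 was 3.29 times PSBO2, PSAD1 was 2.26 times PSAD2 and PSAH2 was 1.62 times PSAH1, and in each of these pairs the counting intervals did not overlap. FPKM times transcript length used the longest annotated model with nothing taken off, and is only a rough guide to sequenced fragments. By that product, PSBO1 of the oxygen-evolving complex was the highest subunit in place of PSBR.

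PETE2, a plastocyanin, stood at 4563 FPKM, or 12.6 times PETE1 at 363 FPKM. The leaf ferredoxin FD2 at 3023 FPKM was 1.83 times FD1. In the Calvin cycle list, RCA was followed by the aldolase FBA2 at 3051 FPKM and FBA1 at 1802 FPKM, and then by PRK, phosphoribulokinase, at 1703 FPKM. SBPASE, sedoheptulose bisphosphatase, stood at 614 FPKM, and FBA3 was lowest at 175 FPKM.

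Of the Rubisco small subunit genes, RBCS3B stood at 5867 FPKM, RBCS2B at 4642 FPKM and RBCS1B at 1372 FPKM. RBCS1A was listed at 0, while its neighbours on chromosome 1, ABA4 and LBD40, stood at 21.9 and 1.70 FPKM. An exact 0 in a table of FPKM can be a failed estimate, so the entry is given as listed and its cause was not tested. The 5 photosynthesis lists together held 18.9% of the summed FPKM, or 15.8% of FPKM times transcript length, with RBCS1A counted at 0. Of their 68 genes, 51 were at 1000 FPKM or more.

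**Figure D2:**
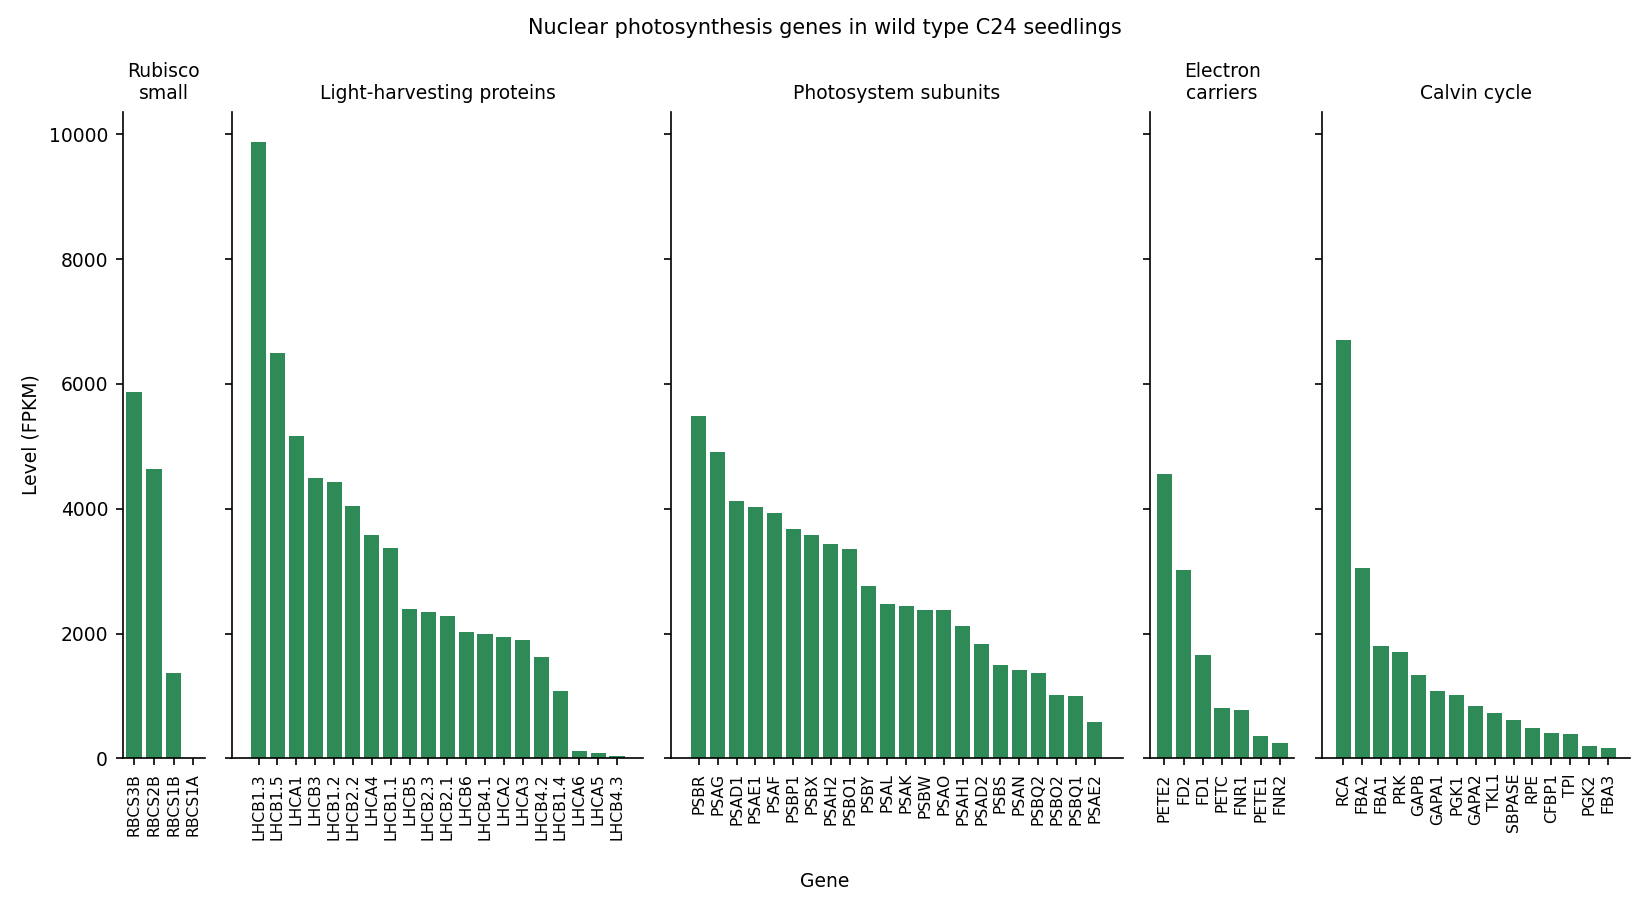
Levels in FPKM of the 68 nuclear photosynthesis genes in the C24 library, 1 bar per gene, grouped by list and ordered by level. LHCB1.3 is highest at 9871 FPKM and RBCS1A has no bar because it is listed at 0.

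Photorespiration salvages the product of Rubisco's reaction with oxygen. All 14 of its listed genes were at 1 FPKM or more and together held 1.07% of the summed FPKM. The aminotransferase GGT1 was highest at 1535 FPKM, followed by the mitochondrial serine hydroxymethyltransferase SHM1 at 1308 FPKM and the glycolate oxidase GOX1 at 1299 FPKM. Partner genes differed in distance. SHM1 was 47.2 times SHM2, GOX1 was 132 times GOX3 and GGT1 was 18.6 times GGT2, whereas GOX2 stood at 536 FPKM and GLDP1 was 3.20 times GLDP2 at 385 FPKM. The glycine decarboxylase gene GLDP1, at 1230 FPKM, led by FPKM times length. Catalase CAT2, which removes peroxisomal hydrogen peroxide, stood at 2637 FPKM, CAT3 at 479 FPKM and CAT1 at 14.5 FPKM [13.7 to 15.2], so that CAT2 held 84.2% of its family. Beta carbonic anhydrases, a list added after values were seen, were led by BCA1 at 6243 FPKM and BCA2 at 1696 FPKM, with BCA3 lowest at 15.3 FPKM.

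Across 27 gene families with 247 genes, 228 genes were at 1 FPKM or more and 4 were listed at 0: RBCS1A, MT4A, AHA6 and GRF12. Over all protein-coding loci the share at 1 FPKM or more was 69.7%. Some of these families are lists by function, such as electron carriers, Calvin cycle enzymes and photosystem subunits, and group different proteins rather than gene copies. The highest member held a median of 39.9% of its family's summed FPKM. That median is the share of PETE2 in the electron carrier list, so it does not measure dominance among gene copies. In 9 families the highest member held over 50%. These were CAT2, MT1A, EF1A-4, FSD1, GAPC2, HSC70-1, SUS1, GLN2 and AHA2.

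**Figure D3:**
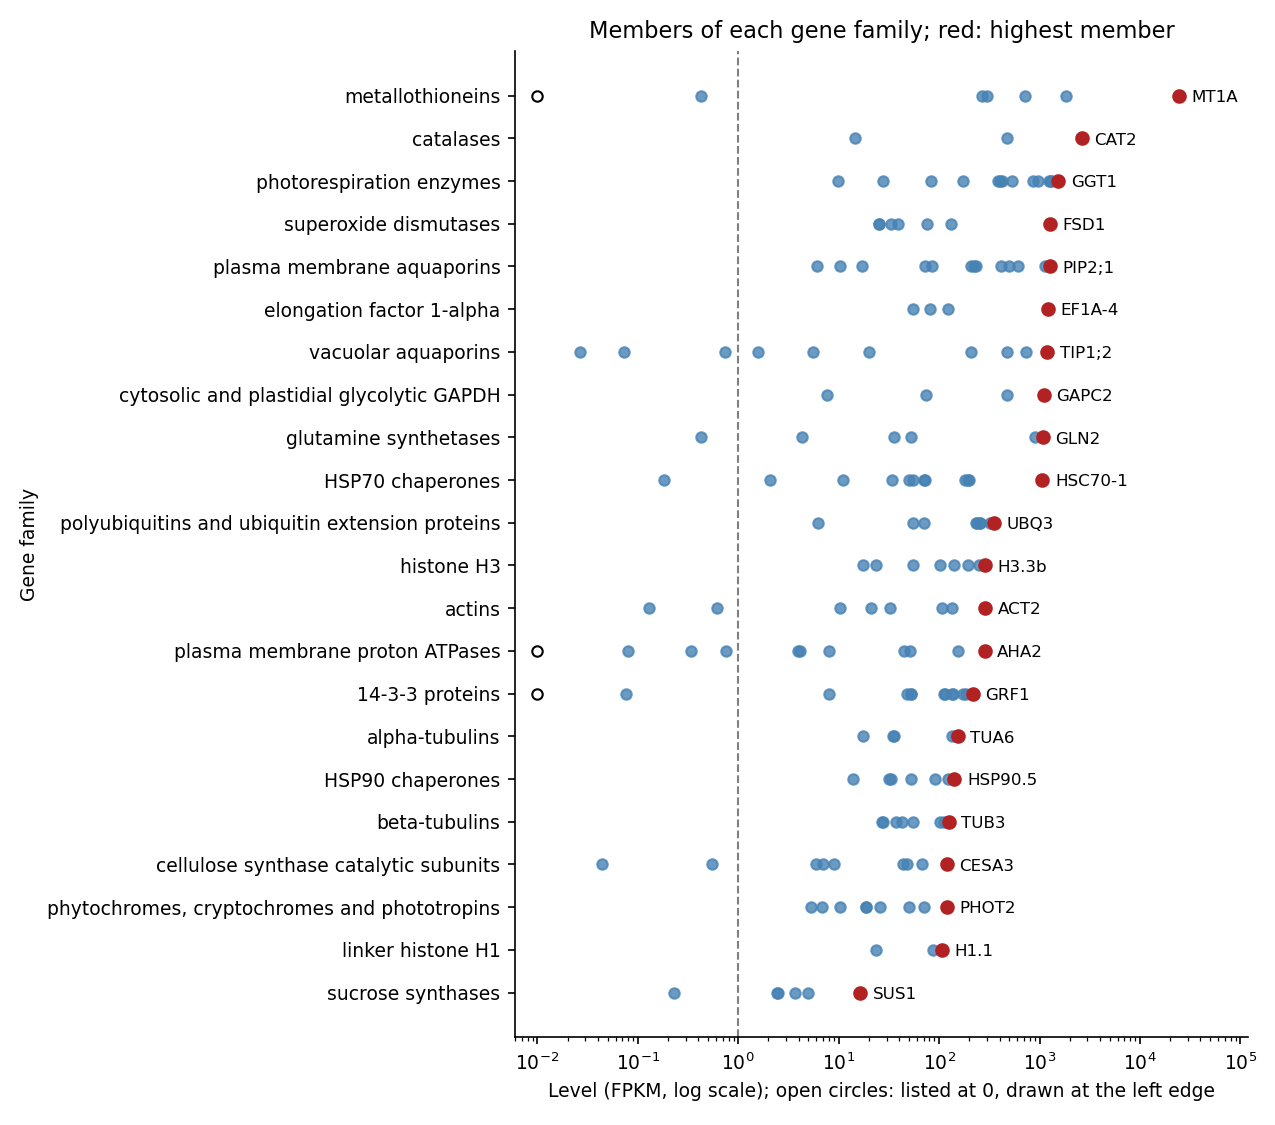
Level in FPKM on a log scale of each member of the other 22 gene families, 1 point per gene, with the highest member in red and named. Open circles at the left edge are genes listed at 0, and the dashed line marks 1 FPKM.

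FSD1, an iron superoxide dismutase, stood at 1278 FPKM and held 79.5% of its family. It was 9.78 times the mitochondrial manganese enzyme MSD1 at 131 FPKM and 32.6 times the copper-zinc enzyme CSD2 at 39.2 FPKM. CSD3 was the highest copper-zinc gene at 75.5 FPKM, and CSD1 stood at 25.3 FPKM. The other iron genes, FSD3 and FSD2, stood at 33.4 and 25.1 FPKM. After MT1A, the metallothioneins followed with MT3 at 1851 FPKM, MT2B at 718 FPKM, MT2A at 301 FPKM and MT1C at 267 FPKM. MT4B stood at 0.425 FPKM and MT4A was listed at 0; MT4 genes are known from seeds.

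EF1A-4, an elongation factor that brings aminoacyl-tRNA to the ribosome, stood at 1223 FPKM, with EF1A-2 at 123 FPKM, EF1A-3 at 81.1 FPKM and EF1A-1 at 54.5 FPKM. The last 3 share 44.9% to 66.2% of their 50-base words with other loci, so the division among them is uncertain. The cytosolic chaperone HSC70-1 at 1070 FPKM was 5.57 times HSC70-3, and BIP1 of the endoplasmic reticulum at 72.1 FPKM was 393 times the stress-inducible BIP3 at 0.183 FPKM. Among HSP90 genes the plastid HSP90.5 was highest at 142 FPKM and the heat-inducible HSP90.1 lowest at 13.9 FPKM. Glycolytic GAPC2 at 1102 FPKM was 2.34 times GAPC1 at 471 FPKM, and GAPCP2 was lowest at 7.57 FPKM.

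Among actins, ACT2 stood at 287 FPKM, ACT8 at 134 FPKM [132 to 137] and ACT7 at 107 FPKM [105 to 109], the actins known from vegetative tissue. ACT3, ACT1 and ACT11 stood at 32.3, 20.9 and 10.3 FPKM. ACT4 at 0.622 FPKM and ACT12 at 0.130 FPKM were below the threshold. TUA6, TUA2 and TUA4 stood at 153, 147 and 135 FPKM. TUA3 stood at 35.4 FPKM, TUA1 at 35.02 FPKM and TUA5 lowest at 17.3 FPKM. TUA5 and TUA3 share 35.36% and 31.96% of their 50-base words with other loci, so the division between them is uncertain. TUB3 at 125 FPKM [122 to 127] and TUB2 at 124 FPKM [122 to 127] could not be separated by counting error. They share 22.02% and 22.26% of their 50-base words with other loci. TUB9 stood at 55.6 FPKM, and TUB1 was the lowest beta-tubulin at 26.99 FPKM.

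CESA3 at 120 FPKM [118 to 122] and CESA1 at 119 FPKM [117 to 120], subunits of the primary wall cellulose synthase, had overlapping intervals, and CESA6 stood at 67.1 FPKM. The secondary wall subunits CESA4, CESA7 and CESA8 stood at 9.01, 7.0 and 5.95 FPKM. PIP2;1 at 1269 FPKM and PIP1;2 at 1135 FPKM led the plasma membrane aquaporins, and TIP1;2 at 1191 FPKM and TIP1;1 at 732 FPKM led the vacuolar aquaporins. The seed-type TIP3;1 stood at 1.58 FPKM and the pollen-type TIP1;3 and TIP5;1 at 0.0732 and 0.0265 FPKM, which correspond to 3 reads and 1 read. The proton pump AHA2 at 283 FPKM was 1.84 times AHA1 at 154 FPKM.

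Plastid GLN2 at 1081 FPKM was 1.2 times cytosolic GLN1;2 at 905 FPKM. SUS1 was the highest sucrose synthase at 16.3 FPKM, and no member of that family reached 100 FPKM. PHOT2 and PHOT1, the blue-light phototropins, stood at 119 and 71.3 FPKM, above CRY1 at 50.1 FPKM. PHYB at 25.8 FPKM was the highest phytochrome and 4.84 times PHYD at 5.33 FPKM. Histone H3 was led by the replacement variants H3.3b at 289 FPKM and H3.3a at 252 FPKM. UBQ3 at 354 FPKM led the ubiquitin genes and GRF1 at 217 FPKM led the 14-3-3 proteins with 17.6% of the family.

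Ribosomal protein loci, found by annotation words, numbered 343, of which 312 were at 1 FPKM or more and 16 were listed at 0. Over all 26695 protein-coding loci, 18609, or 69.7%, were at 1 FPKM or more. The median of the ribosomal protein loci was 68.3 FPKM, with quartiles of 13.4 and 204 FPKM, and they held 5.64% of the summed FPKM. That share includes AT3G08520, the highest of them at 4451 FPKM, with a model of 246 nt. Protein-coding loci whose annotation matched transcription factor words numbered 1099. Of these, 705 reached 1 FPKM, a smaller share than the 69.7% above, and 17 reached 100 FPKM. Among the 26693 protein-coding loci searched for motifs, 1152 stood from 100 to under 1000 FPKM and 97 at 1000 FPKM or more. The 1099 loci were matched by words alone, and some annotations name no class of factor. The highest of these matches was AT4G15545, annotated as a PH-response transcription factor, at 376 FPKM. The B-box gene STO at 336 FPKM, the ethylene response gene EBP at 314 FPKM and BTF3, annotated as basic transcription factor 3, at 243 FPKM came next. AT1G19960, RAP2.4, HB-12, AT1G28400, HB-7 and HB6 followed, from 158 down to 127 FPKM. AT1G19960 is annotated only as a transcription factor and has a coding sequence of 195 nt.

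Markers of organs and cell types are described by level. For comparison, 69.7% of all protein-coding loci were at 1 FPKM or more. The presence of an organ or cell type was not tested. Of 9 root genes 8 were at 1 FPKM or more, led by the endodermal CASP1 at 56.3 FPKM [53.9 to 58.9], with PLT1 at 0.368 FPKM. All 7 stomatal lineage genes were at 1 FPKM or more, from MUTE at 1.94 FPKM [1.51 to 2.45] to KAT1 at 14.4 FPKM. Both phloem genes were at 1 FPKM or more, with SUC2 at 62.4 FPKM and APL at 9.93 FPKM. Of the shoot meristem genes CLV1 stood at 12.8 FPKM and STM at 0.771 FPKM, and WUS and CLV3 were listed at 0. Trichome genes TRY and GL2 stood at 11.2 and 2.36 FPKM, GL1 at 0.968 FPKM and GL3 at 0.330 FPKM. Of 6 floral identity genes only SEP3 passed 1 FPKM, at 1.81 FPKM, and LFY was listed at 0. Of 10 seed genes 4 passed, the highest being CRA1 at 6.14 FPKM, and 3 were listed at 0.

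Flowering regulators were led by FLC, the repressor relieved by cold, at 107 FPKM. SVP stood at 41.2 FPKM, SOC1 at 9.65 FPKM and FRI, an activator of FLC, at 4.52 FPKM [4.1 to 4.97]. The florigen gene FT was at 0.0936 FPKM.

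**Figure D4:**
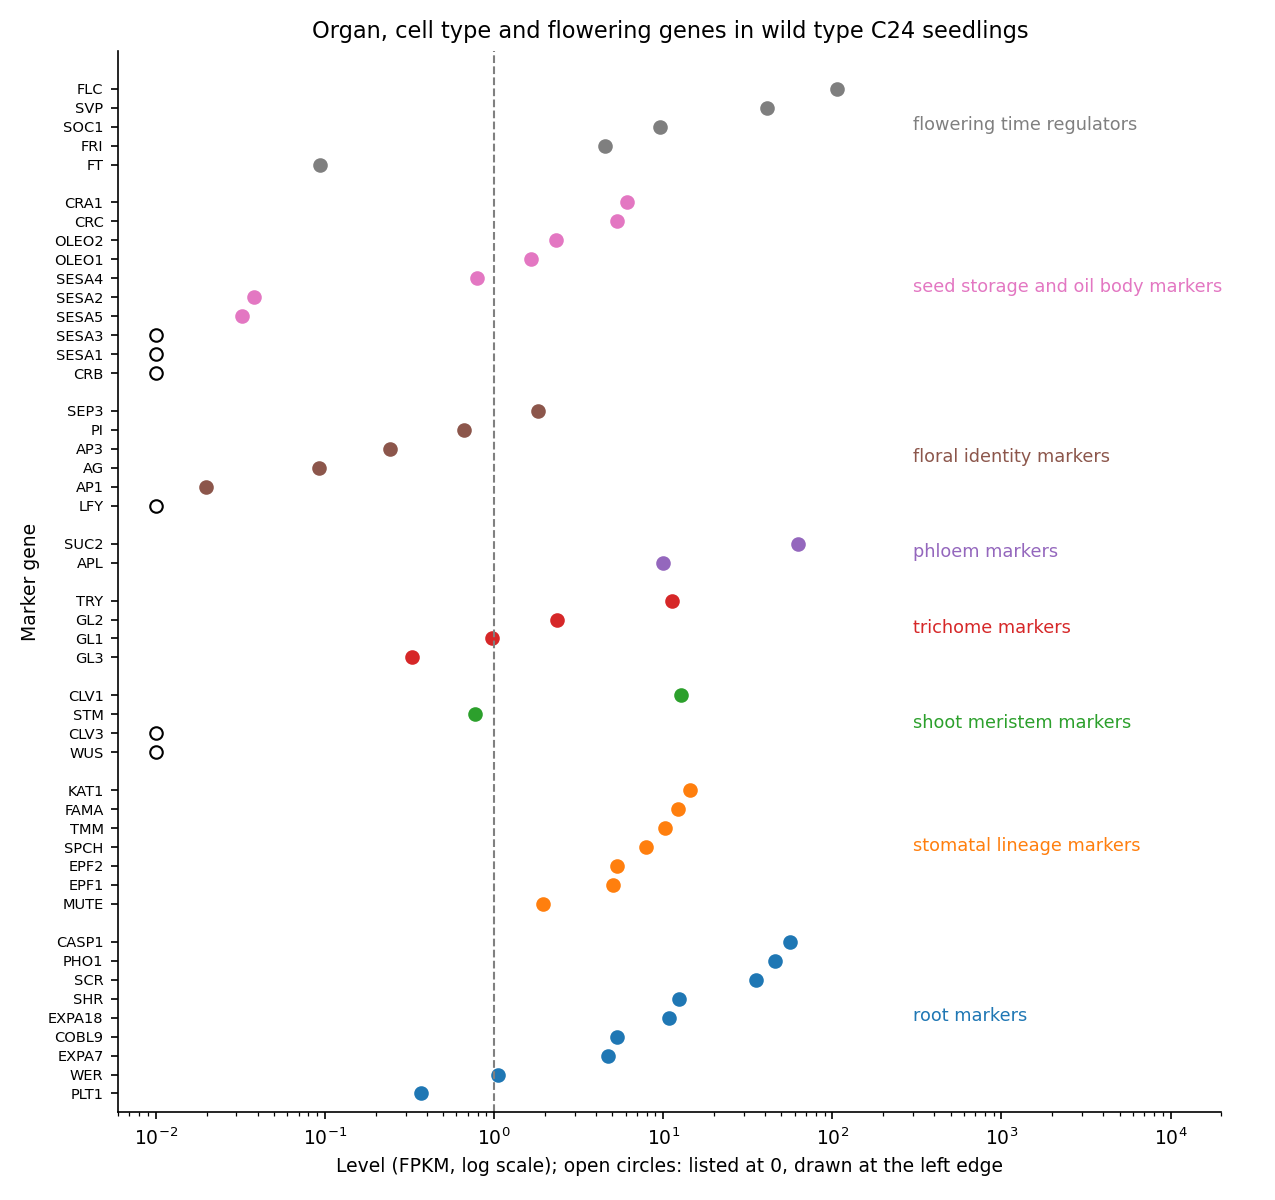
Level in FPKM on a log scale of the organ, cell type and flowering genes, 1 point per gene, coloured by list. Open circles at the left edge are genes listed at 0, and the dashed line marks 1 FPKM; all 7 stomatal lineage genes lie to its right.

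Glucosinolate genes, a list added after values were seen, make and break down the mustard oil precursors. ESP, which diverts breakdown away from isothiocyanates, stood at 2599 FPKM, and the myrosinases TGG1 and TGG2 at 1676 and 869 FPKM. AOP2, a side-chain enzyme annotated as a transcribed pseudogene in the Columbia reference, stood at 733 FPKM and was the highest locus of that type, and AOP3 was listed at 0.

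Among loci outside the protein-coding class, the highest was the snoRNA AT3G47348 at 1657 FPKM with a model of 85 nt, and all 36 snoRNA loci at 1 FPKM or more had models under 300 nt. So did 40 of 45 miRNA loci and all 9 tRNA loci, but 0 of 142 lncRNA loci, 5 of 75 ncRNA loci, 4 of 68 pseudogenes and 13 of 110 transcribed pseudogenes. The highest lncRNA was AT3G22121 at 801 FPKM, the highest miRNA locus AT4G13493 at 224 FPKM, and the highest tRNA AT2G07748 at 493 FPKM. Of the loci at 1 FPKM or more, 42 had at least 50% of their 50-base words in an organelle genome, and 41 of these lay on chromosome 2 between 3244585 and 3502294. They included 8 of the 9 tRNA loci and 21 protein-coding loci, with a median of 3.86 FPKM. The 133 chloroplast and 146 mitochondrial loci were all listed at 0.

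FPKM divides by transcript length, so length is part of the level and of the threshold, and it is given here as a description. Median transcript length was 1770 nt for protein-coding loci from 1 to under 10 FPKM, 1333 nt from 100 to under 1000 FPKM and 1300 nt at 1000 FPKM or more. Promoter motifs were not used by the threshold, and their shares depended on the window searched. In a window from 250 bases before to 50 after the annotated start, the G-box CACGTG, a light-response element, occurred in 23.7% of the 97 loci at 1000 FPKM or more against 7.79% of all protein-coding loci, and the I-box GATAAG in 33.0% against 14.6%. In the 250 bases before the start alone, a window added after those shares were seen, the values were 17.5% against 6.58% and 19.6% against 12.2%. For the 22 photosystem genes the G-box share was 45.5% in the longer window and 18.2% in the shorter, and the I-box share 50% and 22.7%. Motif shares were not taken for the Rubisco small subunit list. In the light-harvesting, Calvin cycle and electron carrier lists the G-box share was the same in both windows. It was held by 20% of the 20 light-harvesting genes, 13.3% of the 15 Calvin cycle genes and 0 of the 7 electron carrier genes. Their I-box shares in the longer and the shorter window were 30% and 20% for light-harvesting genes, 20% and 13.3% for Calvin cycle genes and 57.1% and 42.9% for electron carriers. The 46 loci at 1000 FPKM or more outside the photosynthesis lists held the G-box in 17.4% in both windows and the I-box in 21.7% and 15.2%.

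Site II, TGGGCC, occurred in 53.6% of ribosomal protein loci in the longer window and 45.5% in the shorter, against 15.7% and 13.9% of all loci, and the telobox AAACCCTA in 37.0% and 16.0%, against 6.16% and 4.44%. In both windows site II also occurred in 57.1% of electron carrier genes, 33.3% of Calvin cycle genes, 18.2% of photosystem genes and 5% of light-harvesting genes, whereas no gene of these 4 lists held the telobox. The I-box occurred in 19.5% and 14.9% of ribosomal protein loci. The TATA motif TATAAA, searched on the sense strand in the last 60 bases before the start in both cases, occurred in 11.3% of loci at 1000 FPKM or more and 12.9% of all loci. CCAAT occurred in 68.0% and 51.7% in the longer window and in 62.9% and 46.1% in the shorter. The other motifs were searched on both strands and overlaps between motifs were allowed. A match is a description of the letters and not a site.

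**Figure D5:**
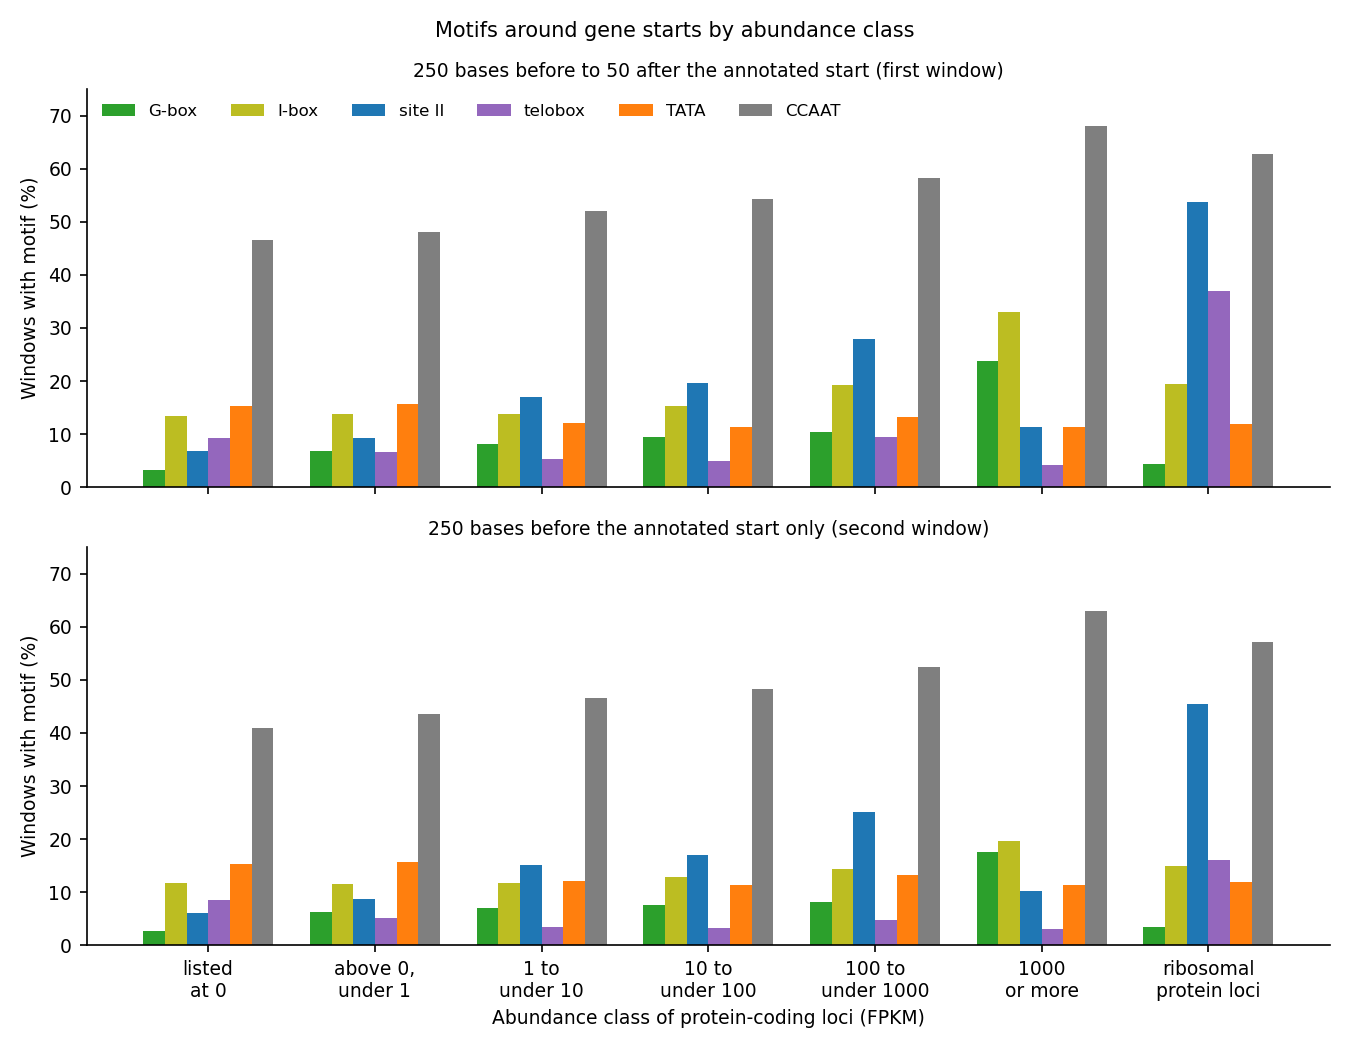
Share in percent of protein-coding loci whose window holds each of 6 motifs, by abundance class in FPKM and for ribosomal protein loci. Above, the window from 250 bases before to 50 after the annotated start; below, the 250 bases before it, where the G-box share at 1000 FPKM or more is 17.5% instead of 23.7%.

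The 250 bases before the start are shown for the highest gene of the photosystem, light-harvesting and ribosomal protein groups that held both of its group's motifs in the shorter window, which 2, 1 and 31 genes did. Capitals mark G-box and I-box in PSAH2 (chr1:19454548-19454797, plus strand) and LHCB6 (chr1:5447881-5448130, minus strand), and telobox and site II in the ribosomal protein S5 gene AT2G33800 (chr2:14302497-14302746, minus strand), from RefSeq TAIR10.1.
PSAH2: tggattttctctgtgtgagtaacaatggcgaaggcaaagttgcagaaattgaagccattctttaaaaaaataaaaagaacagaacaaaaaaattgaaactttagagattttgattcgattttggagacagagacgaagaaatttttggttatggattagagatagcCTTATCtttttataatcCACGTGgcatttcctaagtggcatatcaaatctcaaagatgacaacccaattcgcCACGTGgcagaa
LHCB6: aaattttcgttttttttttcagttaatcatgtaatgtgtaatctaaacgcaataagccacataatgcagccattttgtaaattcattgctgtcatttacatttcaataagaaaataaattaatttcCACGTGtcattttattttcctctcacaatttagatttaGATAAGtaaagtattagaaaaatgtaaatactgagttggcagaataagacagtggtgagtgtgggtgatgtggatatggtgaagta
AT2G33800: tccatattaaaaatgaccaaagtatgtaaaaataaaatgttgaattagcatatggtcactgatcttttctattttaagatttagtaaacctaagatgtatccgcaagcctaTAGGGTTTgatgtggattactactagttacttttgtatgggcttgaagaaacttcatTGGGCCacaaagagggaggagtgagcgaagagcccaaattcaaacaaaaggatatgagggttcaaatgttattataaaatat
These 3 genes stood at 3434, 2023 and 450 FPKM.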

How the data were processed

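The authors deposited a table of FPKM per locus for 4 libraries, and the C24 column was used. TopHat2 2.0.12, Bowtie, Cufflinks 2.0.1, Cuffdiff and the TAIR10 build are named per the submitters' processing notes; no setting of these tools is given there. FPKM divides by model length, so short models and overlapping genes can have high or divided values.

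Members and gene lists were chosen with earlier results of these data known. The carbonic anhydrase and glucosinolate lists, the pairs whose ratios are given and 4 of the alternatives were added after values were seen. Transcription factor words were also revised then, because the first set matched AAP2, PAP26 and PIFI. Promoter motifs were searched 2 times. The first run used 6 motifs in 250 bases before to 50 after the start; the second window, the 250 bases before it, was added after those shares were seen so that no transcribed bases were printed, and the sequences were picked from it. Both are reported for all 6 motifs.

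Loci named are the 30 highest overall and the 30 highest coding loci with transcripts of at least 500 nt, family members and markers. Also named are loci beside the threshold, the highest of each type and the 10 highest loci matching transcription factor words. Of 34133 loci, 33389 matched RefSeq's TAIR10.1 annotation (1973 after a transcript suffix was dropped, 574 of them also listed without it). That annotation describes Columbia, and its models may differ from those the authors used. Depth was inferred from the spacing of low FPKM, with a whole read taken within 0.02, after the search was tested on simulated data. Python 3.11.15, numpy 2.4.6, pandas 2.3.3 and scipy 1.17.1 were used. No test was possible with 1 library; intervals are 95% exact Poisson intervals on implied reads.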

Additional observations from a re-analysis of the deposited data

How the results depend on the processing

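The number of loci at 1 FPKM or more, 19165, stayed within 1.5 times under each alternative run: 20495 at a threshold of 0.5 FPKM, 17438 at 2 FPKM, 19453 at 1 TPM, 18609 for protein-coding loci and 18891 for transcripts of at least 300 nt. The share of summed FPKM in the 100 highest loci, 32.0% of the loci at 1 FPKM or more, was 30.01% for coding loci of at least 500 nt, 31.9% with no filter and 31.4% without organelle-like loci and AT2G01021. The median log2 level, 3.64 with a pseudocount of 1, was 3.53 with 0.1, 3.51 with none and 3.05 with no filter. The median share of the highest family member, 39.9%, was 46.3% by FPKM times length, which changed the highest member in 4 families; it did not move with no filter or in the 25 families whose highest member shares under 20% of its 50-base words.

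The window was the only alternative run for motif shares. Without the 50 bases after the start, the I-box share fell to 19.6% from 33.0% at 1000 FPKM or more. Among photosystem genes the G-box share went from 45.5% to 18.2% and the I-box share from 50% to 22.7%. Among ribosomal protein loci the shares went from 19.5% to 14.9% for the I-box, 53.6% to 45.5% for site II, 37.0% to 16.0% for the telobox and 62.7% to 57.1% for CCAAT. Over all protein-coding loci they went from 7.79% to 6.58% for the G-box, 14.6% to 12.2% for the I-box, 15.7% to 13.9% for site II, 6.16% to 4.44% for the telobox and 51.7% to 46.1% for CCAAT. The window run second lies within the first, so a share could only fall or stay the same. The implied depth was 49.1 (in units of 1000000 fragments), and 49 from transcripts of at least 1000 nt. No paired analysis was possible because the group holds 1 library. Levels have no replicate, and counting intervals leave out biological and library variation.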
